A study of Homo sapiens with 2 samples.

Results

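Enzymes that write, copy and erase DNA methylation were compared between control CP-A cells and CP-A cells exposed to acid and deoxycholic acid (DCA), a secondary bile acid. The 10 genes are the methyltransferases DNMT1, DNMT3A and DNMT3B, their cofactors DNMT3L, UHRF1 and HELLS, the dioxygenases TET1, TET2 and TET3, and the glycosylase TDG. They were chosen by gene symbol, all 10 were found among 17687 genes with a symbol on the array, and each had 1 row, so no choice between rows was needed. CP-A is a Barrett's metaplastic epithelial cell line immortalized with a telomerase reverse transcriptase (TERT) transgene, which both cultures carry. One condition was labelled control and the other pH 6.4 + DCA, for which the methods describe 3 exposures of 48 h to acidified medium with 100 µM DCA, the cells being passaged between exposures. Each condition had 1 Clariom S array, a 1-colour array that reads each gene through a set of short probes, and the deposited values are log2 expression levels. No value therefore has a replicate error, samples cannot be tested against each other, and the words higher and lower are kept for genes that reached the 2-fold threshold of the methods. Differences are pH 6.4 + DCA minus control on the log2 scale.

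Methylation of cytosine in CpG pairs is copied at each cell division. UHRF1 binds DNA methylated on the old strand alone and brings in DNMT1, which methylates the new strand, while the chromatin remodeller HELLS opens compacted repeats for methylation. DNMT3A and DNMT3B methylate new sites, and DNMT3L, which has no catalytic activity of its own, stimulates them, mainly in germ cells. TET enzymes oxidize 5-methylcytosine with iron and 2-oxoglutarate, and TDG cuts out some of the oxidized bases. Loss of DNMT3B or HELLS function causes the ICF syndrome in humans, in which satellite repeats near centromeres lose methylation. The study asked whether acid and DCA lower methylation of centromeric alpha satellite DNA, and the arrays give the messenger RNA of these genes, not their protein or activity.

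Promoter sequences are shown for the maintenance genes, because DNMT1, UHRF1 and HELLS were the only ones of the 10 whose RefSeq promoter windows held an E2F motif, the letters bound by the factors that switch on genes for DNA synthesis. The windows run from 250 bases before to 50 bases after a transcription start, 5′ to 3′ along the gene, in GRCh38.p14. Capitals mark the E2F motif, searched as TTTCCCGC, TTTGGCGC, TTTCGCGC and TTTGCCGC on both strands. The windows lie at chr19:10194904-10195203 on the minus strand for DNMT1 and at chr10:94545538-94545837 on the plus strand for HELLS. For 2 starts of UHRF1, labelled upstream and downstream, they lie at chr19:4909251-4909550 and chr19:4909894-4910193 on the plus strand. A UHRF1 window further downstream, at chr19:4910117-4910416, held no E2F match and is not shown.
DNMT1: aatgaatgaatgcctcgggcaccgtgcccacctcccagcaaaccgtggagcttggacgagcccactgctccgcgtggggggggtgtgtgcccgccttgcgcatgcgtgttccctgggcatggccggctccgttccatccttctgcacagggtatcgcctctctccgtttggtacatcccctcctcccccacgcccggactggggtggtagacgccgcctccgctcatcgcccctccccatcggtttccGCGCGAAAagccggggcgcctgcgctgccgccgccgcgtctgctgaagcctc
UHRF1, upstream start: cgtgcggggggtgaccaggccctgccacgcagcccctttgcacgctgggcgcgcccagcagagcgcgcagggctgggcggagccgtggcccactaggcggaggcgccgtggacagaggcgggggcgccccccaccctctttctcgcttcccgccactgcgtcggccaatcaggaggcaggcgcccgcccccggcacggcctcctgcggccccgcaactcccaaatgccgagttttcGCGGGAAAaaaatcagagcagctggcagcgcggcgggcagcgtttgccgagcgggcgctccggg
UHRF1, downstream start: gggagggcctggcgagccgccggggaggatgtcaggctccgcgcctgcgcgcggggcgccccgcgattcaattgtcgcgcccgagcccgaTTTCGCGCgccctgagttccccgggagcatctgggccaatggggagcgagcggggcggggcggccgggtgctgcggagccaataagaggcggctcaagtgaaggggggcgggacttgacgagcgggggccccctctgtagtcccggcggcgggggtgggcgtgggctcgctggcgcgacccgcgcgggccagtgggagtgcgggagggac
HELLS: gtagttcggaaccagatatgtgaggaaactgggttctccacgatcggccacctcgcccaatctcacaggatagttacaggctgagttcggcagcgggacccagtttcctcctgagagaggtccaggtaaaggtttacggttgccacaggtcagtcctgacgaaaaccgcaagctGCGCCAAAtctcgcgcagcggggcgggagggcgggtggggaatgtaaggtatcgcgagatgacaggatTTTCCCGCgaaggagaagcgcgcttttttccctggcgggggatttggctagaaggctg

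The DNMT1 match began at position -2 from the start, and the UHRF1 matches began at -14 and -160 from their starts. HELLS held 2 matches, at -76 and -8. Of 35116 windows of this length in the table, 3.31% held a match, and of 27305 genes with a window 3.99% held one in at least 1 window. Windows were found for 9 of the 10 genes, and 3 of these held a match. The CHR motif TTTGAA, typical of genes of mitosis, was searched on both strands as well and is not capitalized here. It was found in 1 window each of DNMT3A and TET2 and in 15.2% of all windows, and no match of 1 motif overlapped a match of the other in these genes. The number of CG pairs per window ranged from 3, in the only DNMT3B window, to 46, in windows of DNMT3A and UHRF1. The median over all windows was 14. A match says only that the letters are present, and any start of a gene outside these windows was not searched.

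On these arrays the levels had medians of 6.55 in control and 6.50 in pH 6.4 + DCA over 20893 transcript clusters, the array's gene-level units, whose differences centred on 0.0066 with an SD of 0.58. Olfactory receptor genes, a family that works mainly in the nose, served as a rough guide to background. The middle 90% of 348 of them lay between 2.82 and 5.35 in control and between 2.95 and 5.43 in pH 6.4 + DCA. The highest of them stood at 7.08 in control and 8.21 in pH 6.4 + DCA, so not every one need be at background. Of the epithelial markers, KRT5 and KRT19 were near the top of the scale on both arrays. KRT5 stood at 17.00 and 16.40, and KRT19 at 17.08 and 16.45. TERT, which is no epithelial marker and which the cells carry as a transgene, was counted in the list and stood at 15.49 and 16.15. The epithelial list ranged from 9.10 to 17.08 in control and from 9.07 to 16.45 in pH 6.4 + DCA, with KRT14, EPCAM and KRT18 lower among 9 measured and none higher. Its log2 summed level, with TERT included, went from 18.54 to 18.05. The stromal gene DCN was higher, from 8.83 to 13.29, and so was LUM, from 4.10 to 5.28. COL1A1, COL1A2 and PDGFRB had differences below 0 and under 2-fold. The log2 summed level of the 5 stromal genes went from 9.88 to 13.35, a rise that was mostly that of DCN. The leukocyte gene CD14 was higher, from 6.34 to 8.45, while PTPRC and CD3E stood at 5.03 and 5.73 in control and 5.07 and 5.77 in pH 6.4 + DCA. The summed level of the 4 immune genes went from 7.47 to 8.81, a rise that was mostly that of CD14. That of 3 endothelial genes went from 7.41 to 7.26. The part of these markers in the results below was not tested, and in RNA from whole cultures fewer cells of a kind and less RNA per cell cannot be told apart.

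None of the 10 genes of DNA methylation and demethylation passed 2-fold in either direction. Over all transcript clusters 2.65% were called higher and 4.00% lower, so that a count of 0 among 10 genes lies near the background and is not a result about them. The members' differences ran from -0.71, for TET2, to 0.84, for DNMT3A. Their median was -0.17, beside 0.0066 over all transcript clusters, with 7 genes below 0 and 3 above it. At 1.5-fold DNMT3A was higher, and TET2 and DNMT3B were lower, where 10.9% of all transcript clusters were higher and 11.5% lower. A steadiness of these genes under exposure is not shown by this, since the spread between cultures was not measured.

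**Figure D1:**
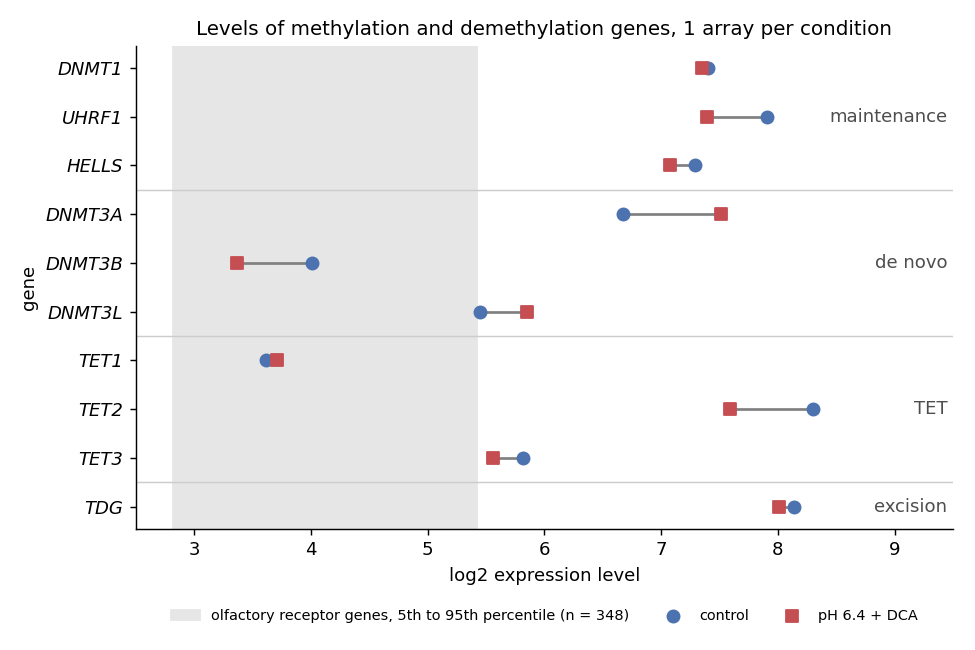
Log2 expression level (x axis) of each of the 10 genes (y axis) on the control array (circles) and the pH 6.4 + DCA array (squares), 1 array each. The shaded range holds the 5th to 95th percentiles of 348 olfactory receptor genes over both arrays; DNMT3B and TET1 lie inside it, and the largest difference is that of DNMT3A, from 6.68 to 7.51.

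Among the genes of maintenance methylation UHRF1 had the largest difference, and DNMT1 had the smallest of all 10 genes. DNMT1, which copies methylation after replication, stood at 7.40 in control and 7.35 in pH 6.4 + DCA. Its difference was -0.06, or 96.2% of the control level, and 89.7% of all transcript clusters differed by as much or more in either direction. With each array centred on its median, and with quantile normalization, the DNMT1 difference was above 0, at 0.0025 and 0.015. UHRF1, the reader of half-methylated DNA, went from 7.90 to 7.39. That difference of -0.51 leaves 70.0% of control and is under 1.5-fold. Of all transcript clusters 13.9% had one as low or lower, and 27.5% differed by as much or more in either direction. In the decile of mean level that holds UHRF1 this last share was 32.4%. HELLS, the remodeller, stood at 7.29 and 7.07, which is 86.1% of control and a difference of -0.22. All 3 genes had levels above the 95th percentile of olfactory receptors on both arrays.

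The de novo group was the most spread, with DNMT3A above its control level and DNMT3B below it. DNMT3A went from 6.68 to 7.51, a difference of 0.84, which is 1.78-fold and short of the 2-fold threshold. Of all transcript clusters, 4.68% had a difference as high or higher. Among the 2089 transcript clusters in the same decile of mean level, 14.7% differed by as much or more in either direction. DNMT3B stood at 4.01 in control and 3.37 in pH 6.4 + DCA, which is 64.1% of control and a difference of -0.64. Both DNMT3B levels lay within the range of olfactory receptor genes, so that this difference rests on a signal that could not be told from background, and with 32 added on the linear scale it was -0.19. It was also the only one of the 10 outside the middle 90% of differences in its own decile of level, which ran from -0.59 to 0.74. By definition that range leaves out 10% of transcript clusters, so 1 gene of 10 outside it lies near the background. In that decile more than 10% of transcript clusters differed by as much as DNMT3B or more in either direction. DNMT3L, the cofactor without catalytic activity, stood at 5.45 and 5.85, a difference of 0.41, with levels just above the 95th percentile of olfactory receptors on each array. The gap between the DNMT3A and DNMT3B differences was 1.48, and no spread between cultures is known to set it against.

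**Figure D2:**
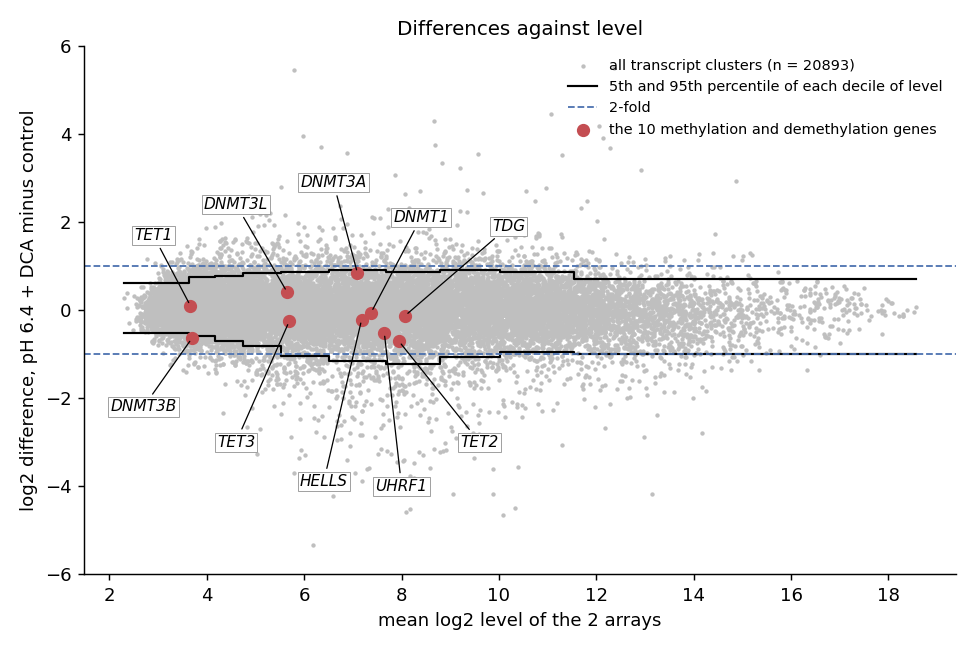
Log2 difference, pH 6.4 + DCA minus control (y axis), against the mean log2 level of both arrays (x axis) for 20893 transcript clusters (grey) and the 10 genes (red, labelled). Black steps are the 5th and 95th percentiles within each decile of mean level and dashed lines mark 2-fold; all 10 genes lie inside 2-fold, and DNMT3B lies just below the lower step, at -0.64 against -0.59.

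TET2 had the largest difference below control among the 10 genes. This dioxygenase stood at 8.30 in control and 7.59 in pH 6.4 + DCA, a difference of -0.71, or 61.2% of control. Of all transcript clusters 8.34% had a difference as low or lower, and 15.5% differed by as much or more in either direction. In its own decile of level that second share was 20.7%, and the middle 90% ran from -1.22 to 0.87, which holds the TET2 value. TET3, the family member best known from the fertilized egg, went from 5.82 to 5.56, a difference of -0.26. These levels were not far above the 95th percentiles of olfactory receptors, 5.35 in control and 5.43 in pH 6.4 + DCA. TET1, known for its role in pluripotent and germ cells, stood at 3.61 and 3.71, both inside the olfactory receptor range, with a difference of 0.10. TDG, the glycosylase that removes some oxidized forms of methylcytosine, stood at 8.14 and 8.01, a difference of -0.13, or 91.6% of control.

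Of 16 partners of maintenance methylation, 14 were measured, and their median difference was -0.06. None was higher or lower, a count near the background of 2.65% and 4.00% for so few genes. They include the deacetylases HDAC1 and HDAC2, found in complexes with DNMT1, at -0.46 and -0.26, and the histone methyltransferase EHMT1 at 0.34. ZBTB24, a zinc finger gene mutated in the ICF syndrome, differed by 0.47. CDCA7, another ICF gene named here after its value was seen, went from 3.46 to 4.09, inside the olfactory receptor range. The 4 ICF genes thus had differences of -0.64 for DNMT3B, -0.22 for HELLS, 0.64 for CDCA7 and 0.47 for ZBTB24, none of them 2-fold. Of 13 genes that guide de novo methylation through histone marks or zinc finger proteins, 11 were measured and none was called, again near the background, with a median of 0.05. SUZ12, a subunit of the Polycomb complex PRC2, differed by 0.95 and NSD2, which dimethylates lysine 36 of histone H3, by -0.94, both just short of 2-fold. MORC2, a silencing ATPase, differed by 0.60 and EZH2, the catalytic subunit of PRC2, by -0.28. With the arrays centred on their medians, SUZ12 passed 2-fold.

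Of 8 methyl-CpG readers, which bind methylated DNA, 7 were measured and had a median difference of 0.21. None was called, which for 7 genes is near the background shares of 2.65% higher and 4.00% lower. MBD1 and MBD2, methyl-CpG binding repressors, differed by -0.87 and -0.85, the zinc finger reader ZBTB38 by 0.74 and the glycosylase MBD4 by 0.52. Of 14 genes of excision and repair, which act after TDG or beside it, 1 was higher and 2 were lower, beside the same background shares, with a median of -0.26. The ligase LIG3 went from 6.92 to 7.99, a difference of 1.08, and its partner XRCC1 went from 11.55 to 10.30, a difference of -1.26. GADD45B, a stress gene linked to active demethylation, went from 11.19 to 10.14. The glycosylases NEIL3 and SMUG1 differed by -0.75 and -0.62, and the polymerase POLB by 0.54. LIG3 was under 2-fold with 32 added on the linear scale, and GADD45B was under 2-fold with median centring.

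Genes that supply the enzymes' substrates held a few large differences, beside background shares of 2.65% higher and 4.00% lower over all transcript clusters. TET enzymes use 2-oxoglutarate and are inhibited by succinate and fumarate, and of 18 listed genes of this metabolism and of TET binding, 15 were measured, 1 was higher and none was lower, with a median of -0.04. The higher one was SDHA, the succinate dehydrogenase subunit, from 10.36 to 11.77. OGDH, which consumes 2-oxoglutarate, differed by 0.99, just short of 2-fold, and was called under median centring, quantile normalization or removal of the trend with level, where 2 genes were higher. IDH3G and IDH2, which make 2-oxoglutarate, differed by -0.65 and -0.55, and DCAF1, a ubiquitin ligase adaptor of TET proteins, by 0.59. Of 20 genes of the methyl donor cycle, which makes and recycles S-adenosylmethionine, 17 were measured. Among these, 2 were higher and 1 was lower, beside the same background shares, with a median of 0.16. The highest was NNMT, which spends S-adenosylmethionine on nicotinamide, from 7.01 to 9.32, a difference of 2.31. CBS, which draws homocysteine out of the cycle, went from 7.39 to 8.75, a difference of 1.35. The thymidylate synthase TYMS went from 9.19 to 8.16, a difference of -1.03, and was not called under median centring or with 32 added. MAT2A and MAT2B, the catalytic and regulatory subunits of the enzyme that makes S-adenosylmethionine, differed by 0.65 and 0.66. The methionine synthase MTR and its reductase MTRR differed by 0.57 and 0.55.

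**Figure D3:**
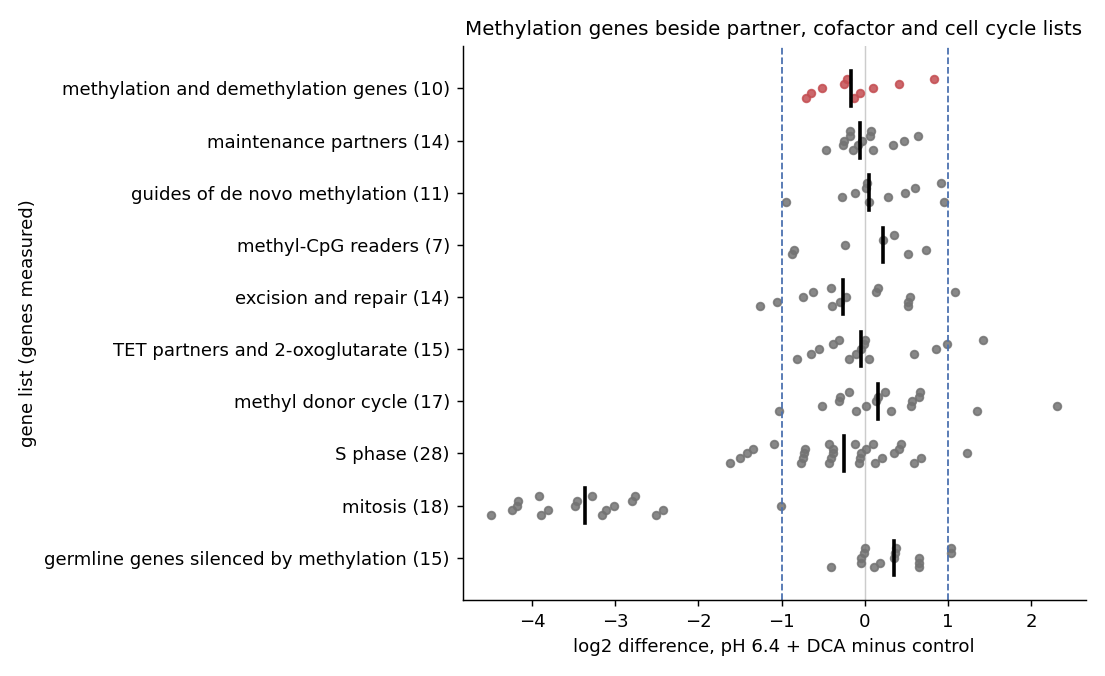
Log2 difference, pH 6.4 + DCA minus control (x axis), of every measured gene of each list (y axis, with the number measured); points are genes, black bars are list medians and dashed lines mark 2-fold. The 10 genes of methylation and demethylation lie between -0.71 and 0.84, while all 18 genes of mitosis lie below -1.

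All 18 listed genes of mitosis and some of the listed genes of S phase were lower. Their values stand here because DNMT1, UHRF1 and HELLS are most expressed in dividing cells. The lists were chosen with earlier results of these data known. The study had already reported cell cycle and mitosis terms among downregulated genes of these arrays, so the mitosis count is not a separate result. Of 28 genes of S phase, 5 were lower and 1 was higher, with a median of -0.25, beside background shares of 4.00% lower and 2.65% higher. The lower ones were DTL, which marks replication factors for destruction, at -1.62, the replication genes GINS1 at -1.49, CDC6 at -1.42 and CDC45 at -1.09, and the primase PRIM1 at -1.34. The helicase subunit MCM6 was higher, from 6.42 to 7.64, and with 32 added on the linear scale it and CDC45 were under 2-fold, at 0.98 and -0.61. POLA2, CLSPN and RRM2 differed by -0.77, -0.74 and -0.72, and MCM3 by 0.68. Of these 28 genes, 9 had a difference as low as that of UHRF1 or lower, 14 as low as that of HELLS and 17 as low as that of DNMT1. Of 18 genes of mitosis all 18 were lower, with a median of -3.37, among them the proliferation marker MKI67, which differed by -3.48, the topoisomerase TOP2A, from 10.87 to 8.07, and cyclin A2, CCNA2, from 9.97 to 7.22. The smallest change was in the checkpoint kinase gene BUB1B, at -1.01, which was under 2-fold with median centring, quantile normalization or 32 added. All 18 lay below each of the 10 methylation genes in their difference. The part of this fall in the values of DNMT1, UHRF1 and HELLS was not tested. Nocodazole, a drug that stops cells in mitosis, is given in the methods for the RT-qPCR samples, and its use before the array RNA is not stated.

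The promoter windows of the cell cycle lists held the motifs unequally. Of 24 S phase genes with a window, 15 held the E2F motif, or 62.5%, against 3.99% of all genes with a window. The 15 had a median difference of -0.12, with 3 lower and 1 higher, and the 9 without it had a median of -0.39, with 2 lower and none higher. None of 14 mitosis genes with a window held the E2F motif, while 9 of them, or 64.3%, held the CHR motif, against 18.2% of all genes with a window.

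**Figure D4:**
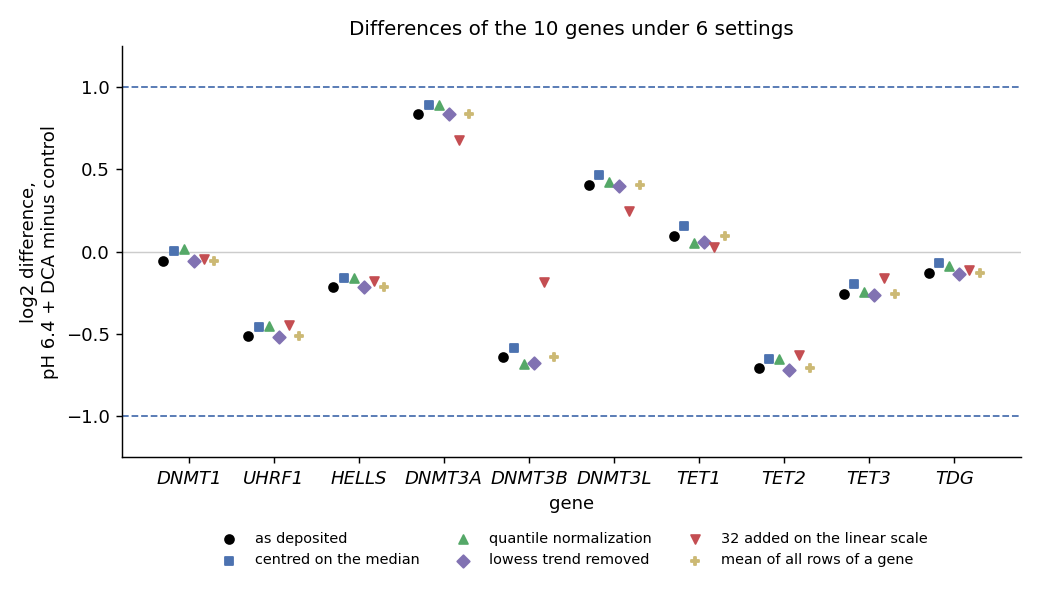
Log2 difference, pH 6.4 + DCA minus control (y axis), of each of the 10 genes (x axis) with the values as deposited and under 5 other settings (symbols); dashed lines mark 2-fold. No gene reaches 2-fold in any of them, and DNMT3B moves most, from -0.64 to -0.19 with 32 added on the linear scale.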

How the data were processed

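Levels came from 1 control and 1 pH 6.4 + DCA array. The authors processed both in Transcriptome Analysis Console 4.0 and deposited log2 expression values in 1 table of 21448 rows. How these were background-corrected, summarized and normalized, and on which genome build, is not stated in the sources used here. The main setting used the values as deposited over 20893 transcript clusters and left out 555 unmapped rows. Symbols came from the platform annotation, updated by gene identifier through RefSeq, and where a gene had several rows the brightest by mean level represented it. Lists are described by counts at 2-fold and medians. Genes named from a list are all those called, or examples of them for mitosis, and up to 4 others with the largest differences whose mean level was at or above the median. Members and lists were chosen with earlier results of these data known. Olfactory receptors were matched by symbol. Deciles of mean level held 2089 or 2090 transcript clusters. Promoter windows came from RefSeq, GRCh38.p14, and genes can have several. The alternatives were median centring, quantile normalization, removal of a lowess trend (span 0.3), adding 32 on the linear scale, the mean of a gene's rows, thresholds of 1.5-fold and 3-fold, dim genes left out and the mean for the median. No paired or replicate analysis was run, with 1 array per condition. Calculations used Python 3.11.15, numpy 2.4.6, pandas 2.3.3 and statsmodels 0.14.6, and figures matplotlib 3.10.9. Simulated data were used to test the steps. Protein sequences, methylation and copy number were not analysed here.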

Additional observations from a re-analysis of the deposited data

How the results depend on the processing

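No paired analysis was possible because each condition had 1 array. The number of the 10 genes called at 2-fold was 0 in each direction under median centring, quantile normalization, trend removal, 32 added on the linear scale, the mean of a gene's rows, a 3-fold threshold and with DNMT3B and TET1, both under the 25th percentile of mean level, left out. At 1.5-fold, 1 was higher and 2 were lower. Their median of -0.17 ranged from -0.18 with the trend removed to -0.11 with median centring, and the mean was -0.12. The sign of the difference held for 9 genes under the 5 settings of scaling and row choice and changed for DNMT1 under median centring and quantile normalization. Median centring moved the median difference of all transcript clusters from 0.0066 to 0.065. Of 221 other comparisons with the main setting, over single genes and pathway lists, 188 kept their side of 2-fold or, for counts and medians of lists, stayed within 1.5 times or 0.1, and the other 33, all counts or medians of lists, moved further. With 32 added, the medians of the S phase and mitosis lists were -0.12 and -2.86. Signal near background limits DNMT3B and TET1 most, and 17 genes of the array with several transcript clusters, none of them among the 10, had a median disagreement of 0.37 between their differences.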

Other observations

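Germline genes that promoter methylation keeps silent in body cells were a list set beside the enzymes. Of 16 such genes 15 were measured, 2 were higher and none was lower, where 2.65% of all transcript clusters were higher and 4.00% lower. The median difference was 0.35, beside 0.05 over 348 olfactory receptor genes and 0.0066 over all transcript clusters. STK31 went from 3.18 to 4.22 and TDRD1, a piRNA pathway gene, from 3.52 to 4.56, levels inside the olfactory receptor range on both arrays. Of the olfactory receptor genes 7 were higher and 5 lower. DAZL, an RNA-binding protein of germ cells, differed by 0.35, and MAEL, a piRNA pathway gene, and SYCP3, of the meiotic chromosome axis, by -0.04 and -0.02. Only BRDT lay above the median level of the array, at 9.70 and 9.71. With 32 added on the linear scale the list's median was 0.09 and none was higher. DAZL, MAEL and SYCP3 were named after their values were seen.

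The chromosome neighbours of the 10 genes were also read, in a description added after the data were seen. Around DNMT3A on chromosome 2, the 20 measured genes next to it in order of position, taken from both sides, had a median of -0.24. DNMT3A itself differed by 0.84. Around TET2 on chromosome 4 the neighbours' median was -0.0030, against -0.71 for TET2, and around DNMT3B on chromosome 20 it was 0.05, against -0.64. DNMT1 and UHRF1 both lie on chromosome 19, with neighbour medians of -0.35 and 0.06. For HELLS and TET1 on chromosome 10 and TDG on chromosome 12, the medians were -0.11, -0.15 and -0.07. They were 0.13 around DNMT3L on chromosome 21 and -0.10 around TET3 on chromosome 2. The study reported copy number changes in CP-A exposed to acid and DCA, read from DNA on arrays. Among them were gains of chromosomes 10 and 20 and a loss of chromosome 12. The part of copy number in the values given here was not tested.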
